A study of Drosophila melanogaster with 4 samples.

Results

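Isolated single Scute peaks are peaks that have no other called peak within 10 kb on the same chromosome arm. They come from a ChIP-seq experiment on whole Drosophila melanogaster embryos, in which chromatin fragments bound by the transcription factor Scute were pulled down with an antibody and sequenced. Of the 1276 peaks in the deposited list, 953 lay on the 6 placed arms X, 2L, 2R, 3L, 3R and 4. Peaks on each arm were joined into a run when the next one started at most 10 kb after the furthest end so far, and the 351 peaks left in runs of 1 are the members. They make up 27.5% of the list and 36.8% of the placed peaks (95% exact interval 33.8 to 40.0). The other 602 placed peaks lay in 187 runs of 2 or more.

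The labels describe 2 Scute ChIP libraries and 2 input libraries, input being chromatin sequenced without the antibody step. All 4 came from the Y cn bw sp strain with the sex of the embryos unknown. Its recorded genotype combines y[1], cn[1], bw[1] and sp[1] with oc[R3.2], lab[R4.2] and CG33964[R4.2], and also carries Rh6[1], GstD5[1], MstProx[1], LysC[1], Gr22d[1] and Gr22b[1]. The stage label reads 0 to 8 h, whereas the collection protocol is worded for 8 to 16 h. The antibody was a crude guinea pig serum, and whole embryos mix every cell type of that age, so a peak cannot be traced to a tissue. The list gives 1 start, 1 end and 1 score per peak with no value per library, so replicate spread could not be measured and library depth is unknown.

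Scute is a basic helix-loop-helix protein of the achaete-scute complex. It pairs with the partner protein Daughterless and binds short E-box sequences in DNA, and it is known for giving cells of the ectoderm the potential to become neural precursors. Genes that respond to proneural proteins often carry several binding sites close together, while other sites stand alone. The list shows where ChIP enrichment was called once in a stretch of genome and where it was called repeatedly. No sequence was examined, so the number of binding sites under a peak is not known.

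The members were chosen by measured values, the called start and end of each peak, and positions, scores and widths all come from the same comparison of ChIP with input. Members are therefore described beside the run peaks without a test. Intervals on medians are order-statistic intervals and intervals on shares and densities are exact, all at 95%. They cover counting over peaks only, and neighbouring peaks are not independent. Coordinates are those of FlyBase release 5, the build named in the file header. No gene or sequence is attached to a peak, because no genome or annotation of that release was used here.

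By the rule, isolated peaks lie over 10 kb from their neighbours, and most lay much further. The gap to the nearest peak had a median of 66.2 kb (58.2 to 73.0), with an interquartile range of 27.4 to 153 kb, against a median of 0.523 kb (0.454 to 0.636) for run peaks. Of the 351 members, 132 (37.6%) had no other peak within 100 kb, while 64 had one within 20 kb. The least separated member, 3R:1473603-1474422, lay 10.481 kb from the next peak and scored 16.42. The next were a pair of members 10.85 kb apart, 2R:19460628-19460943 with a score of 9.73 and 2R:19471793-19472130 with a score of 12.38. Just on the other side of the limit, the run peaks farthest from their nearest neighbour had gaps of 9.627 kb, for the peak 3R:16658736-16658982 scoring 8.84, then 9.164 kb for 2R:4544313-4544541, scoring 7.9, and 9.114 kb for 2R:1559536-1559848, scoring 11.6. No peak had its nearest neighbour between 9.627 and 10.481 kb away, so small shifts of the limit inside this range leave the members as they are.

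**Figure D1:**
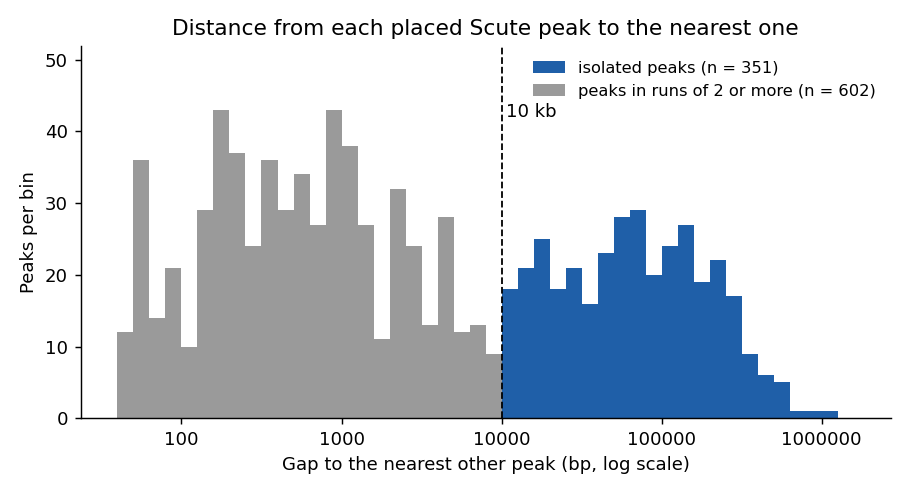
Number of placed peaks per bin of the gap to the nearest other peak in bp on a log scale, for the 351 isolated peaks (blue) and the 602 peaks in runs of 2 or more (grey), with the 10 kb limit dashed. The isolated peaks spread from 10.481 to 1060 kb with a median of 66.2 kb, and the run peaks reach at most 9.627 kb, with a median of 0.523 kb.

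The score of a peak is the value given by the authors' peak caller and is read here as −log10 of a p-value. It therefore measures how unlikely the ChIP signal was against background, not how many cells carried bound Scute. Isolated peaks scored about as high as single peaks taken from runs. Their median score was 11.77 (11.33 to 12.27), with an interquartile range of 9.75 to 15.5 and extremes of 6.72 and 84.73. Run peaks had a median of 12.1 (11.6 to 12.6). Among them are 31 peaks that lie side by side in 1 stretch of 2L with many very wide peaks, called the 2L array here. Outside the array the 571 run peaks had a median of 11.72 (11.35 to 12.28), so the difference of medians, isolated minus run, was -0.38 with the array and 0.05 without it.

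The picture was the same for runs of different sizes when peaks were counted one by one. The 327 peaks in pairs and triplets had a median score of 11.71 (11.18 to 12.36), and the 244 peaks in runs of 4 or more outside the array had 11.86 (11.26 to 12.61). Both intervals overlap that of the isolated peaks. Scores above 20 were found in 35 isolated peaks (9.97%, 7.04 to 13.6) and in 64 run peaks outside the array (11.2%, 8.74 to 14.1).

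A run has several chances to hold a strong peak, so its best peak is higher by construction. The strongest peak of each run outside the array had a median score of 15.05 (14.28 to 16.11) over 185 runs, against which an isolated peak, being the strongest of its own stretch, had 11.77. In the 99 pairs the stronger peak had a median of 13.9 (12.6 to 14.7) and the weaker one of 10.07, so isolated peaks lay between the members of a pair. In the 43 triplets the strongest peak had a median of 16.89, and in the 43 runs of 4 or more outside the array 17.12.

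**Figure D2:**
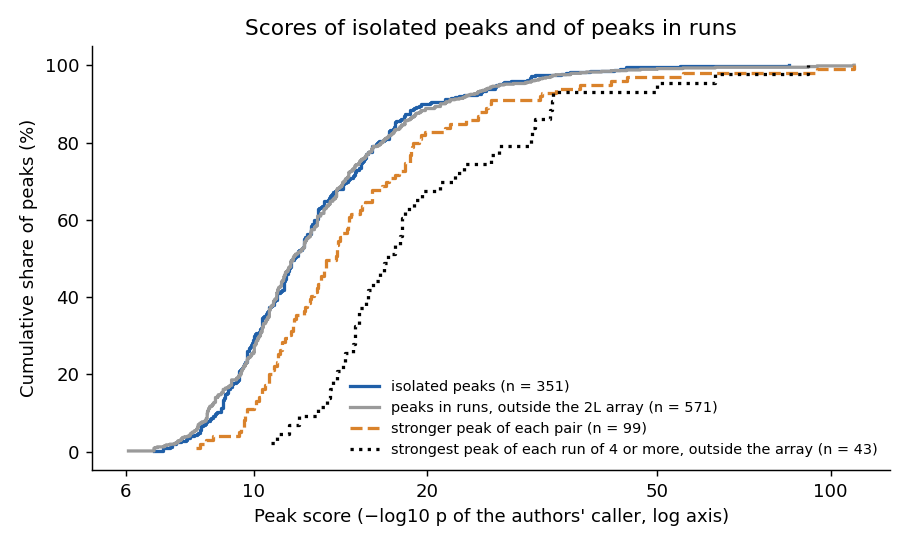
Cumulative share of peaks in percent against score (−log10 p, log axis) for 351 isolated peaks, 571 run peaks outside the 2L array, the stronger peak of each of 99 pairs and the strongest peak of each of 43 runs of 4 or more outside the array. The curves of isolated and run peaks nearly coincide, with medians of 11.77 and 11.72, while the strongest peaks of pairs and of larger runs sit to the right, with medians of 13.9 and 17.12.

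Isolation was spread over the whole range of scores. With the array left out, the 922 placed peaks were split into 10 groups of 92 or 93 by score, and the isolated share ran from 30.1% in the weakest group (21.0 to 40.5) to 47.8% in the next one (37.3 to 58.5), with 35.9% in the strongest (26.1 to 46.5). The share over all groups was 38.1%, inside the interval of every group. Among the 100 highest scores outside the array 35 were isolated, and among the 20 highest 6 were. With the array included, the isolated share of the strongest 95 placed peaks was 27.4%, since none of the array peaks is isolated.

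**Figure D3:**
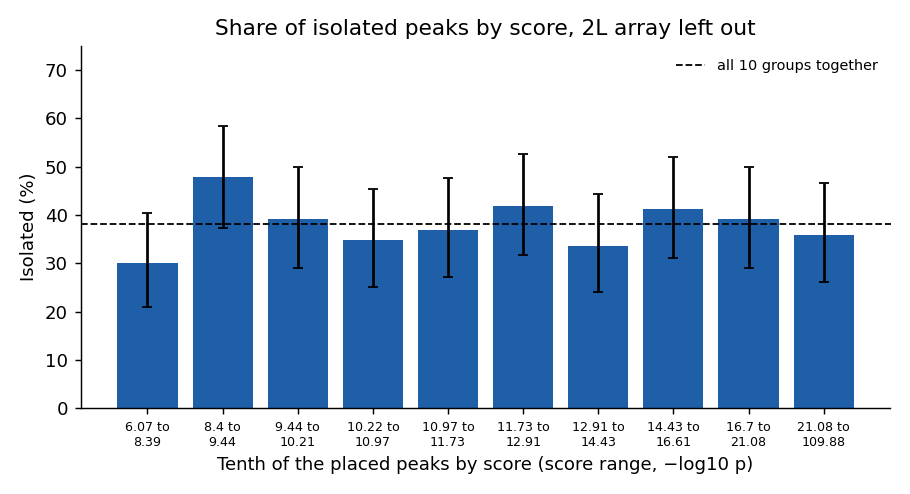
Share of isolated peaks in percent in each of 10 groups of placed peaks ordered by score, with the 2L array left out and exact 95% intervals as bars. The shares lie between 30.1% and 47.8% with no steady trend around the 38.1% of all groups together (dashed).

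The members differed widely among themselves at the top of the range. The highest isolated score, 84.73, belonged to the 690 bp peak 3L:7905369-7906058, with its neighbours 540 kb before and 66.2 kb after it. Only 3 placed peaks scored higher, and all 3 were in runs. The next isolated peaks were far below it. The peak 2L:3152658-3153170 scored 54.74 over 513 bp and lay 263 kb from the nearest peak. The peak 3R:11619486-11620385 scored 44.22 over 900 bp, almost midway between neighbours 127 and 126 kb away.

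The X chromosome supplied 5 of the 20 highest-scoring members, and 2L and 3R also supplied 5 each. Of all 351 members, 53 lay on X, 59 on 2L and 93 on 3R. The strongest isolated peak on X, X:19472533-19473499, scored 43.24 over 967 bp, and the peak X:17720984-17721460 scored 42.18 over 477 bp. The lower-scoring ones were X:16111244-16111781 with a score of 34.08, X:12548106-12548656 with 30.26, and X:13888917-13889459 with 29.8. That last one was the most isolated member of all, with 1.06 Mb of arm without a peak on one side and 1.71 Mb on the other. Strong signal was thus present at sites with no other called peak over long distances.

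The other 12 of the 20 were autosomal and more closely graded. The peak 3L:11112876-11113532 scored 38.33. On 2L there were 2L:5092819-5093455 with 35.36, 2L:6323847-6324447 with 34.76, 2L:21405687-21406025 with 30.26 and 2L:1556806-1557148 with 27.97. The peak scoring 30.26 ends 11.008 kb before the 2L array starts and would join it at a limit of 20 kb.

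On 3R the members of this group were 3R:17122400-17124043 with a score of 30.73, 3R:5699699-5700411 with 30.18, 3R:18967600-18968021 with 26.61 and 3R:24889542-24890099 with 26.27. On 2R they were 2R:8915569-8916090 with 27.13, 2R:18158020-18158576 with 27.06 and 2R:19865943-19866561 with 26.36. The highest-scoring members lay at varied distances from other peaks. Over the 20 highest members the gap to the nearest peak had a median of 70.7 kb, close to the 66.2 kb of all members, and its lowest value was 11.008 kb.

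Across all members, scores showed no steady relation to the distance from other peaks. The 64 members with a neighbour within 20 kb had a median score of 11.28 (10.22 to 12.38), the 77 at 50 to 100 kb had 12.4 (11.28 to 13.89), and the 62 at 200 kb or more had 11.76 (10.35 to 12.75). Spearman's rho between score and gap was -0.03 over the 351 peaks, given as a description, since all scores share the same libraries. The most remote members after the X peak named above were 2L:14527453-14527714, with a score of 12.75 and a gap of 977 kb, and X:18758275-18758536, with 8.02 and 658 kb.

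Isolated peaks had a lower median width than run peaks. Their median width was 311 bp (297 to 323), with an interquartile range of 249 to 442 bp, against 338 bp (322 to 361) for all run peaks and 329 bp (317 to 348) for those outside the array. The interval of isolated peaks overlaps that of run peaks outside the array, and just touches that of all run peaks, at 322 to 323 bp. In the wide tail, 3 of the 351 isolated peaks reached 1000 bp, against 26 of the 571 run peaks outside the array. The isolated peaks covered 130 kb in all, which is 34.7% of the bases under placed peaks outside the array, although they were 38.1% of those peaks.

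The widest isolated peak, 3R:17122400-17124043, spanned 1644 bp with a score of 30.73. The next were 2L:22428008-22429166, with 1159 bp and a score of 14.98 at the end of the arm's peaks, and 3R:14748859-14749927, with 1069 bp and a score of 25.3. The X peak scoring 43.24 and its neighbour X:19531287-19532222, of 936 bp and a score of 26.18, completed the widest 5. At the lower end, 16 isolated peaks (4.56%) had the smallest width of the list, 201 bp, against 19 run peaks (3.16%). Ties in width were ordered by start, and the first by that order were 3 of these 16. Of them, 3L:1569478-1569678 scored 9.1, and X:511282-511482 and X:2528366-2528566 scored 8.59 and 7.23.

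Stronger isolated peaks were wider. Spearman's rho between score and width was 0.59 over the 351 isolated peaks and 0.64 over the 571 run peaks outside the array, again as a description. The 95 isolated peaks of at most 250 bp had a median score of 9.81 (9.55 to 10.35), the 125 of 251 to 350 bp had 11.55 (10.99 to 12.25), the 62 of 351 to 500 bp had 13.34 (11.48 to 15.48), and the 69 above 500 bp had 17.17 (14.98 to 21.49). In the same width classes the run peaks outside the array had 10.03, 10.97, 12.58 and 17.84. The run median lay inside the interval of the isolated peaks in every class except 251 to 350 bp, where it was just below. All 20 of the highest-scoring members were wider than the median member.

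**Figure D4:**
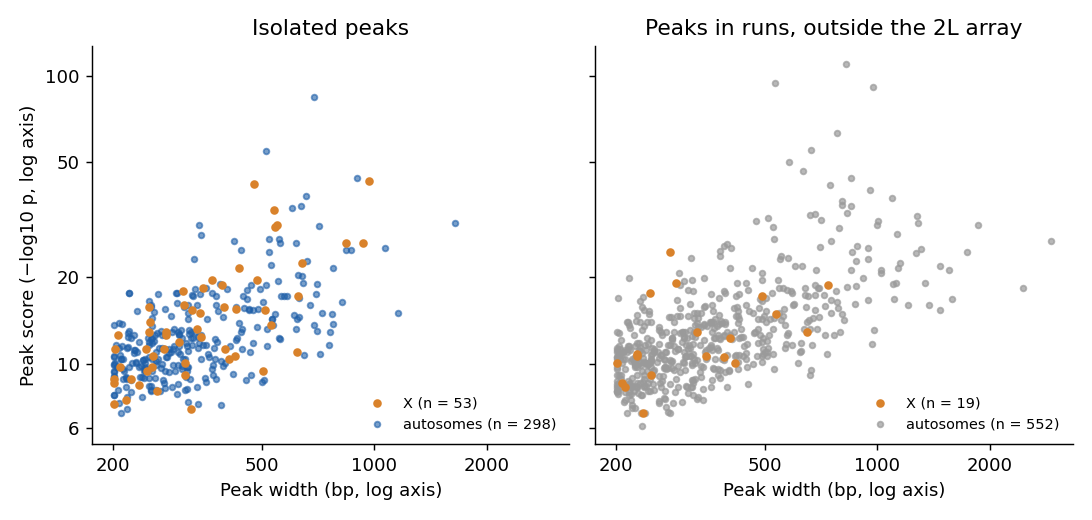
Score (−log10 p) against width in bp, both on log axes, for 351 isolated peaks (left) and 571 run peaks outside the 2L array (right), with X peaks in orange. Score and width go together in both panels, with Spearman's rho of 0.59 and 0.64, and widths above 1000 bp are mostly in the right panel.

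The X chromosome differed from the large autosome arms in how its peaks were arranged. On X, 53 of 72 peaks were isolated (73.6%, 61.9 to 83.3), against 296 of 849 on 2L, 2R, 3L and 3R (34.9%, 31.7 to 38.2). Per Mb of the span between the first and the last peak of an arm, X held 2.50 isolated peaks and the large autosome arms 3.17, a ratio of 0.788 (0.577 to 1.06). Peaks in runs numbered 19 on X and 553 on the large autosome arms, or 0.895 and 5.92 per Mb, a ratio of 0.151 (0.0903 to 0.238). Without the array that ratio was 0.160 (0.0956 to 0.253). The low number of peaks on X was thus found mostly among run peaks.

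Counting runs in place of their peaks gave the same picture, with 7 runs on X and 176 on the large autosome arms, a density ratio of 0.175 (0.0693 to 0.368). An arm with fewer peaks leaves more of them alone by construction, so the isolated share of an arm and its peak density cannot be told apart here. The density of isolated peaks is also tied to that of all peaks, since adding peaks to an arm both creates and removes isolated ones.

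The density of isolated peaks varied among the 4 large autosome arms. It was 2.63 per Mb on 2L (59 peaks), 3.81 on 2R (77), 2.90 on 3L (67) and 3.36 on 3R (93). The 4 counting intervals overlap, with 2.00 to 3.39 on 2L and 3.00 to 4.76 on 2R. The isolated share was 27.7% of the peaks on 2L, or 32.4% without the array, 36.7% on 2R, 37.0% on 3L and 38.0% on 3R. Chromosome 4 had a lower isolated share, with 2 isolated peaks among 32 (6.25%, 0.766 to 20.8), but 22 of its 30 run peaks lay in 1 run. Per Mb it held 1.56 isolated peaks (0.189 to 5.65), an interval that overlaps those of all other arms. The 2 isolated peaks scored 6.97 and 8.78, and the stronger was 4:329188-329642. When each arm was divided into 10 equal stretches, each of the 40 stretches of the large autosome arms held 2 to 17 isolated peaks (median 7), whereas run peaks ranged from 0 to 43 (median 12). The stretch with 43 was the last of 2L, which includes the 31 peaks of the array.

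**Figure D5:**
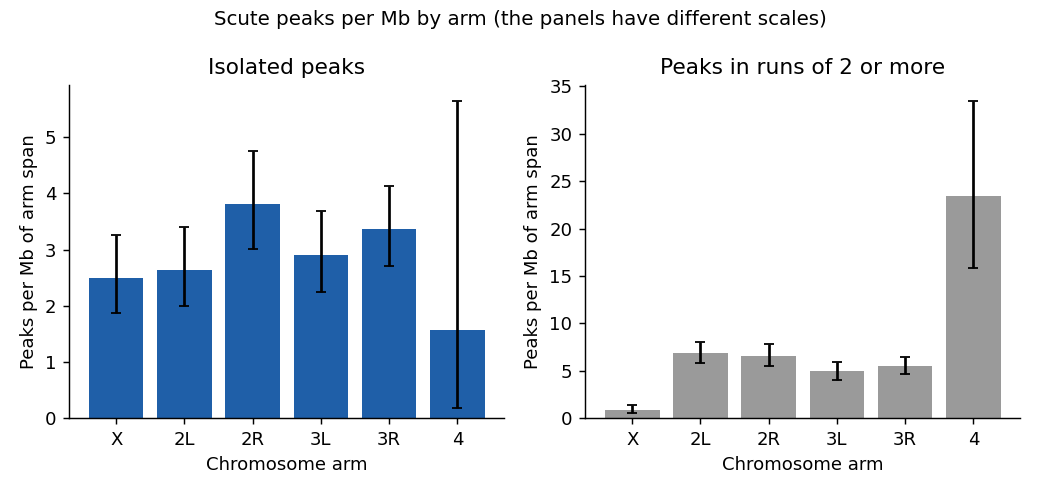
Isolated peaks (left) and peaks in runs of 2 or more (right) per Mb of arm span, with exact Poisson 95% intervals, on different vertical scales. Isolated peaks on X (2.50 per Mb) lie near those of 2L (2.63), while run peaks on X (0.895) lie below every autosome arm.

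Isolated peaks on X had a higher median score than those on the large autosome arms, within overlapping intervals. Their median score was 12.91 (11.28 to 15.48) and their median width 326 bp (277 to 399), against 11.6 (11.28 to 12.25) and 307 bp (292 to 320) on the large autosome arms. The width intervals overlap too. Scores above 20 occurred in 9 of 53 isolated X peaks (17.0%, 8.07 to 29.8) and in 26 of 296 on the large autosome arms (8.78%, 5.82 to 12.6). The 19 run peaks on X had a median score of 10.83 (10.03 to 17.17).

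Scores also carry a trace of the background each peak was judged against. MACS is known to choose, for each peak, the highest of several background estimates, one over the whole genome and others from input reads nearby. As a result, peaks judged against the genome-wide mean share a ladder of possible scores. The ladder that best matched the list had a mean of 55.7. A peak whose score fell within 0.006 of one of its steps is said to be at the common background. This was found for 129 isolated peaks (36.8%, 31.7 to 42.0) and 162 run peaks outside the array (28.4%, 24.7 to 32.3). The cut of 0.006 leaves out some scores that recur close to a step. The score 8.86, at 0.0104 from a step, was shared by 7 isolated and 4 run peaks. The score 9.44, at 0.00957 from a step, was shared by 7 and 2. The shares therefore depend on the cut, and with a tolerance of 0.02 they were 49.3% and 37.1%.

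Apart from X, the shares were close at the tolerance of 0.006. On the large autosome arms 86 of 296 isolated peaks (29.1%, 23.9 to 34.6) and 142 of 522 run peaks outside the array (27.2%, 23.4 to 31.2) were at the common background. On X it was 42 of 53 isolated peaks (79.2%, 65.9 to 89.2) and 13 of 19 run peaks (68.4%, 43.4 to 87.4). Isolated peaks at the common background were denser on X than on the large autosome arms, at 1.98 against 0.921 per Mb (ratio 2.15, 1.45 to 3.14). Those off it were sparser, at 0.518 against 2.25 per Mb (ratio 0.230, 0.113 to 0.421). With a tolerance of 0.02 both statements kept their direction, with ratios of 1.80 (1.27 to 2.53) and 0.0759 (0.0155 to 0.225). The second ratio lay outside its interval at 0.006, so its size depends on the tolerance. For run peaks, array included, the X to autosome density ratio at 0.006 was 0.336 (0.176 to 0.591) at the common background. Off it the run-peak ratio was 0.0689 (0.0251 to 0.151). Peaks off the common background were thus sparser on X among run peaks as well, while those at it were denser on X among isolated peaks only. At 0.02, 50 of 53 isolated X peaks (94.3%) were at the common background and 3 were off it. On the large autosome arms 122 of 296 isolated peaks (41.2%) and 187 of 522 run peaks outside the array (35.8%) were then at it.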

How the data were processed

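The material was 1 peak list for 2 Scute ChIP and 2 input libraries. The submitters' processing notes name CASAVA 1.7.0.2 and 1.7.0.3, BWA, MACS2 and the build BDGP5. Coordinates are FlyBase release 5, per the file headers. The calling threshold, the pooling of libraries and the handling of duplicates are, in the sources used here, not given. The score deposited by the authors was taken to be a −log10 p-value because of its values alone: 567 of 1276 (44.4%) matched, within 0.006, the −log10 tail probability of a whole-number height under a Poisson mean of 55.7, the best mean between 2 and 200. On the placed arms 319 of 953 (33.5%) matched. The mean was picked as the one with the most matches in this same list, and matches by coincidence were not measured. The share is therefore no independent support for this reading of the score. Scores were used only to describe and rank peaks within the list.

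Peaks on U, Uextra and arms ending in Het were dropped and the rest joined at 10 kb. The 2L array is the stretch covered by 2L runs with at least 2 peaks of 2500 bp or more. Arm length was the span from first to last peak. Named peaks are the 20 highest members, the highest per arm, the 5 widest, 3 narrowest, 3 most remote, and 3 on each side of the limit. The members, array, comparisons and alternatives were chosen with earlier results of these data known. No test was made. The scripts were tested on simulated data. Alternatives were limits of 5 and 20 kb, peaks within 500 bp merged, only scores above the placed median, no array, no arm ends, a tolerance of 0.02 and length from base 1. Python 3.11.15, numpy 2.4.6, pandas 2.3.3, scipy 1.17.1 and matplotlib 3.10.9 were used.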

Additional observations from a re-analysis of the deposited data

Results flagged for a closer look

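The 323 peaks on U, Uextra, 2LHet and 2RHet lie outside the comparisons above and had no control list beside them. Under the same 10 kb spacing 216 of them (66.9%) would stand alone, 205 on Uextra, 8 on U and 3 on the Het arms, with a median score of 28.2, a range of 6.46 to 54.29 and a median width of 554.5 bp. The spacing of these peaks cannot be read as isolation, because U and Uextra are collections of fragments whose order in the genome is not known.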

How the results depend on the processing

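No paired analysis was possible because values exist only for the libraries combined, and for the same reason no replicate could be left out. Read depth and replicate spread are unknown. Of 67 alternative values, 47 stayed inside the counting interval of the value they recompute (counts: within 1.5 times). The number of isolated peaks ran from 234 with only scores above the placed median to 397 with peaks within 500 bp merged. All 351 members were among the 385 isolated at 5 kb, and 287 stayed isolated at 20 kb. The X to autosome density ratio of isolated peaks ran from 0.697 (0.513 to 0.931, peaks merged) to 0.847 (20 kb). With peaks merged and at 5 kb, where the ratio was 0.729 (0.536 to 0.975), the interval lay below 1. These intervals count peaks that are not independent, so they are no test of a difference.

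The other 20 values lay outside it, each under an alternative that joins, merges or drops peaks or widens the tolerance by construction. The isolated share of placed peaks was 40.4% at 5 kb, 30.1% at 20 kb, 50.3% with peaks merged and 49.2% with only scores above the placed median, and on the large autosome arms 38.4%, 28.2%, 48.8% and 48.3%. On X it was 84.6% in that upper part of the list. There the median score was 15.4 for isolated and 16.7 for run peaks, the median width 426.5 and 510.5 bp, and the share at the common background 42.3% and 40.1%. With peaks merged, isolated peaks had a median width of 326 bp, and run peaks a median score of 12.9 and width of 414 bp. With a tolerance of 0.02 the shares at the common background were 49.3% for isolated and 40.4% for run peaks.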

Other observations

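Counting each run as 1 unit, isolated peaks were 351 of the 538 units on the placed arms (65.2%), 88.3% of the units on X and 62.7% on the large autosome arms. The more of an arm’s units are isolated, the more of them have isolated neighbours by construction. Of the 351, 154 (43.9%) had isolated peaks as the next peaks on both sides, 142 had an isolated peak on one side and a run on the other, and 50 lay between runs. On X it was 40 of 53 (75.5%) with isolated peaks on both sides, against 114 of 296 (38.5%) on the large autosome arms, where isolated peaks were also a smaller share of the units than on X. The longest string held 18 isolated peaks in a row on X, from 16342807 to 21222542, with a median score of 12.4, and the next held 16 on X from 4483998 to 11589647, with a median of 13.8. The longest on an autosome held 10 peaks on 2L from 12545985 to 17222391, with a median of 11.44. These strings were chosen after their values were seen.

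Some runs were very compact. In 46 of the 187 runs every peak lay within 500 bp of the next, among them 38 of the 99 pairs. Merged, these 46 regions had a median score of 12.91 for their best peak and a median width of 980.5 bp. The isolated peaks had 11.77 and 311 bp. A merged region spans its peaks with the gaps between them and keeps their highest score. It is therefore wider, and favoured in score, by construction, and the values are not like for like.

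If the score is −log10 p and 55.7 is the background mean, the score of peaks at the common background can be turned back into a ChIP height. Both were inferred from the values, and how many scores match a step by coincidence was not measured. Among the 129 isolated peaks the height had a median of 118, which is 2.12 times the mean of 55.7, with a range of 98 to 257. The highest belonged to the 3L peak scoring 84.73 and was 4.61 times the mean. The 162 run peaks outside the array had a median height of 119. The lowest height was 98 in each group.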
